A study of Homo sapiens with 54 samples.

Results

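The 6 genes described here, PGR, ESR1, NR3C1, FOXA1, GATA3 and TFAP2C, encode 3 steroid receptors and 3 sequence-specific DNA-binding factors of luminal breast cells. They were chosen by name, among 20037 protein-coding genes of the RefSeq table on chromosomes 1 to 22, X and Y. All deposited chromatin immunoprecipitation sequencing (ChIP-seq) regions that touch a gene's RefSeq span or the 50 kb on either side of it were taken as the regions of that gene. The study used T47D, a human breast cancer line grown in culture. Cells received either ethanol vehicle or R5020, a synthetic progestin that activates the progesterone receptor (PR), for 1 h. The antibodies recognised PR, the RNA polymerase III repressor Maf1, Brf1, which helps to place that polymerase at its genes, its subunits POLR3A, POLR3C, POLR3G and POLR3GL, and histone H3 acetylated on lysine 27 (H3K27Ac). The labels list 3 libraries for each of the 16 combinations of antibody and treatment, besides 6 input libraries, and the authors deposited 1 region list for each combination. No replicate spread can therefore be given for any number below, no p-value is printed, and intervals are 95% intervals for counting error of regions only. The lists hold no read depth. Neighbouring regions are not independent, so these intervals are a lower limit on the error.

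Progesterone, estrogen and glucocorticoid receptors are ligand-activated transcription factors: the hormone-bound receptor binds DNA and recruits coactivators, some of which acetylate histones. PGR encodes PR itself, so regions of PR at PGR lie at the receptor's own gene. ESR1 encodes estrogen receptor alpha, whose activity raises PGR transcription in breast cells, and NR3C1 encodes the glucocorticoid receptor, which recognises nearly the same DNA element as PR. FOXA1 is a forkhead pioneer factor that opens chromatin for steroid receptors, GATA3 is a zinc-finger factor of luminal differentiation, and TFAP2C encodes AP-2 gamma, which binds GC-rich elements at luminal genes. H3K27Ac marks active promoters and enhancers. RNA polymerase III makes tRNAs and other short RNAs. None of the 6 genes is one of its known targets.

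The line's label was checked on H3K27Ac within 1 kb of the ends of the span of marker genes. All 5 luminal markers (KRT8, KRT18, KRT19, EPCAM and CDH1) carried a region in both treatments. KRT5 and KRT14, keratins of basal cells, carried none there. Of the 5 basal or mesenchymal markers, 2 carried a region with vehicle (TP63 and ZEB1) and 3 with R5020 (also VIM). The lists themselves differed greatly in length between treatments. PR regions over all chromosomes used numbered 6663 with vehicle and 173129 with R5020, Maf1 regions 3049 and 22683, and H3K27Ac regions 88870 and 112543. The treatment tag reads ethanol for 4 libraries whose title says R5020: replicates 1 and 2 of POLR3C and replicate 1 of each of POLR3G and POLR3GL. Groups follow the titles here, and every treatment contrast of those 3 subunits carries this conflict.

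The promoter sequences of 4 of the genes are given first, since an R5020 PR region lay over each of them. They are the 250 bases before the outermost RefSeq start, read 5′ to 3′ on the gene's strand, from RefSeq on GRCh38. Capitals mark a match to the AP-2 motif GCCNNNGGC, the only one of the motifs searched that occurred in them. The windows are chr11:101129814-101130063 on the minus strand for PGR, chr14:37595250-37595499 on the minus strand for FOXA1, chr10:8045083-8045332 on the plus strand for GATA3 and chr6:151656422-151656671 on the plus strand for ESR1.
PGR: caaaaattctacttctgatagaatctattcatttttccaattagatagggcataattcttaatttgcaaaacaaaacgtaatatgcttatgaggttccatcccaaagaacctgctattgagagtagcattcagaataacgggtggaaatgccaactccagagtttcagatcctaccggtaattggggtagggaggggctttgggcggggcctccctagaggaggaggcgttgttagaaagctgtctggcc
FOXA1: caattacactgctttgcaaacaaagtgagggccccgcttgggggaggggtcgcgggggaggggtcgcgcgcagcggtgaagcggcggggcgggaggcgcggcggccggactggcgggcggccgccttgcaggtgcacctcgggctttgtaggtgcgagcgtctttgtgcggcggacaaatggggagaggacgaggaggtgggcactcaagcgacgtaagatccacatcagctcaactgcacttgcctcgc
GATA3: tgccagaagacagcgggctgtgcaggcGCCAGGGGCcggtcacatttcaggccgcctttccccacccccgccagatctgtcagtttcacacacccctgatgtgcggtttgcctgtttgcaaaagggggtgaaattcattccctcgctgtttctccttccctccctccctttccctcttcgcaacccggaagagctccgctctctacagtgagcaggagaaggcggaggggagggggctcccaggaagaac
ESR1: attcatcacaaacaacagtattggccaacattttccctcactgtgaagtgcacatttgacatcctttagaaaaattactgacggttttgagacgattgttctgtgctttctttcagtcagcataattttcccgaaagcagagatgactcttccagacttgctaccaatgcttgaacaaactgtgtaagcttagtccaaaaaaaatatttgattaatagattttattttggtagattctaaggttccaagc
The FOXA1 window was 67.2% G and C, the GATA3 window 60.8%, the PGR window 43.6% and the ESR1 window 36.0%. At PGR and FOXA1 a PR region lay over the window in both treatments, whereas at GATA3 and ESR1 one lay there with R5020 alone. H3K27Ac covered the FOXA1, GATA3 and ESR1 windows in both treatments and neither treatment's list placed it over the PGR window, which lies just outside the acetylated domain. Over the NR3C1 window (chr5:143435513-143435762, minus strand), none of the 16 lists had a region.

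Both strands of each window were searched for the full element of PR and the glucocorticoid receptor (GNACA and TGTNC around 3 free bases), the full estrogen receptor element (GGTCA and TGACC around 3 free bases), the forkhead motif TGTTTAC, the GATA motifs AGATAA and TGATAA, and GCCNNNGGC. No motif of this set overlapped another in the printed windows, which hold a single match, GCCAGGGGC in GATA3. Of 35116 RefSeq promoter windows, 19.8% hold GCCNNNGGC in the same 250 bases, 2.98% TGTTTAC, 9.17% AGATAA, 6.66% TGATAA, 0.327% the full PR element and 0.0399% the full estrogen receptor element. Counting every RefSeq start of the genes and the 50 bases after it, 23 windows of 300 bases were searched at 5 genes, and TFAP2C had no entry. GCCNNNGGC occurred in 3 of 6 GATA3 windows and 2 of 3 PGR windows, which overlap each other. TGTTTAC and AGATAA each occurred in 1 of 7 NR3C1 windows, chr5:143403234-143403533. The full receptor elements occurred in none of the 23. Taken at 300 bases, 23.2% of the 35116 promoter windows hold GCCNNNGGC, 3.42% TGTTTAC and 10.3% AGATAA. The full PR element occurs in 0.390% of them and the full estrogen receptor element in 0.0570%. A match or its absence says nothing here about binding of the factor.

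PR was found at 5 of the 6 genes with vehicle and at all 6 with R5020, and each gene had more PR regions with R5020. That is the behaviour of nearly every gene in these lists: 38.1% of all protein-coding genes had a PR region within 50 kb with vehicle, 96.9% with R5020, and 96.9% had more with R5020 than with vehicle. PGR had 5 PR regions with vehicle and 39 with R5020. ESR1, the longest of the genes, had 8 and 97. NR3C1 had 0 and 22, and was the one gene of the set with no vehicle region. FOXA1 had 8 and 29, GATA3 11 and 29, and TFAP2C 2 and 11. Summed, the 6 genes held 34 vehicle and 227 R5020 PR regions, a log2 ratio of 2.74 (2.21 to 3.30), against 4.70 for the whole lists. The number with R5020 was 3.63 times that with vehicle at FOXA1 and 2.64 times at GATA3, the genes with the densest vehicle PR, and 12.1 times at ESR1. When only the 6663 R5020 regions of highest -log10 q were kept, so that both PR lists were equally long, the 6 genes held 16 R5020 regions against 34 (log2 ratio -1.09). Of those 16, 9 lay at ESR1, and PGR, FOXA1, GATA3 and TFAP2C each had fewer than with vehicle.

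**Figure D1:**
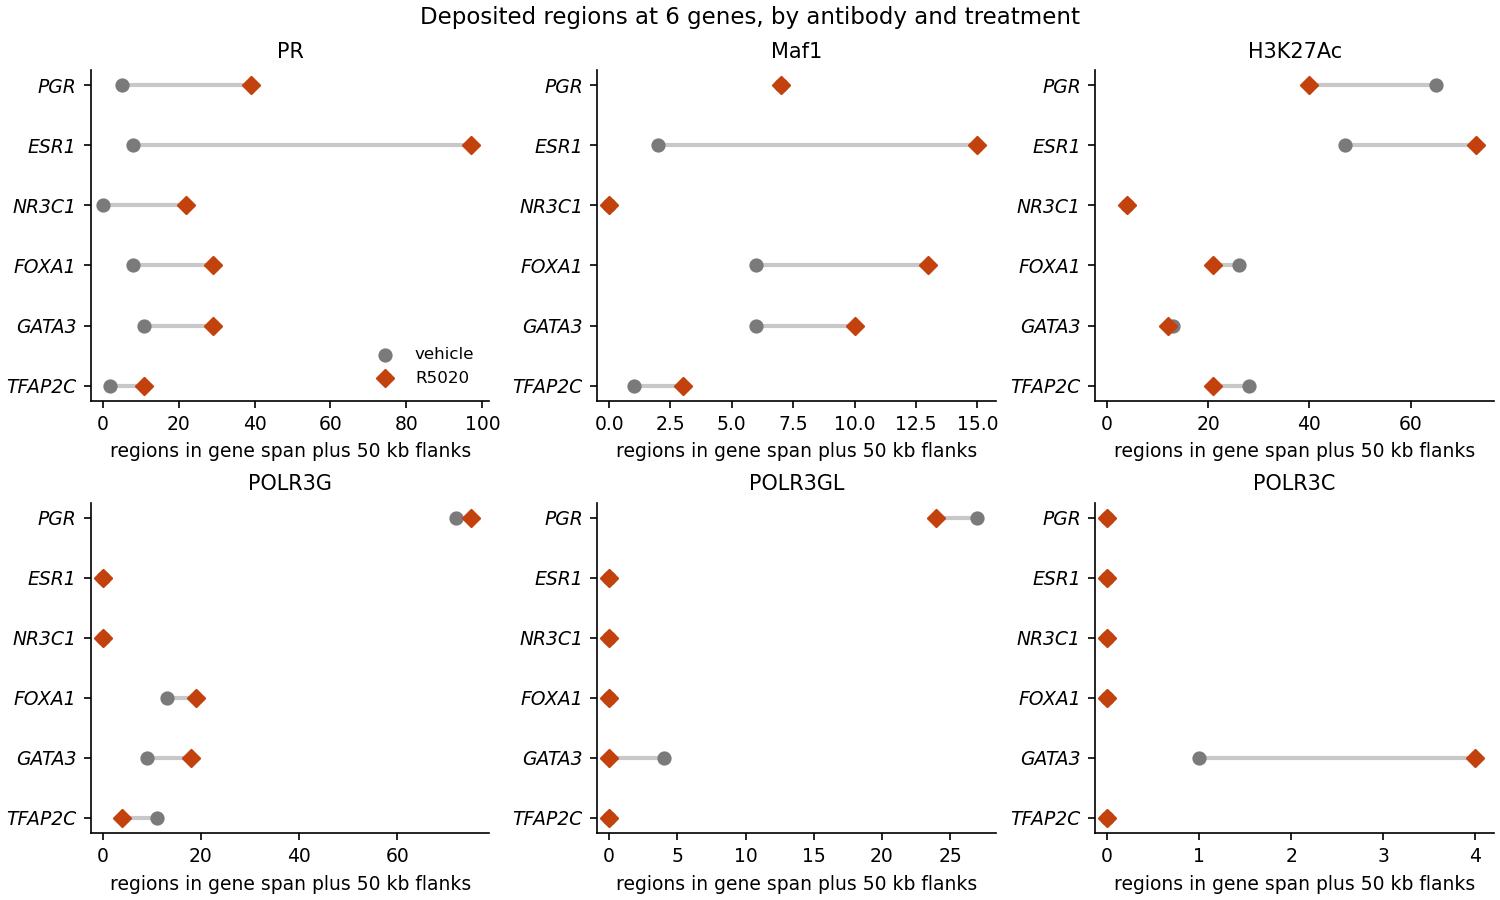
Number of deposited regions (x axis) in the span of each gene plus 50 kb on either side, for 6 antibodies, with vehicle (grey circles) and R5020 (orange diamonds). Each point is 1 list, so no error bar is drawn. POLR3A and Brf1 had no region at any of the 6 genes and are not plotted. PR points lie further right with R5020 at every gene, from 5 to 39 at PGR and from 8 to 97 at ESR1, whereas H3K27Ac points lie further left at PGR, FOXA1, GATA3 and TFAP2C.

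Since the windows differ in length, PR was also expressed as regions per 100 kb of window. With vehicle, GATA3 had 8.47 and FOXA1 7.57 regions per 100 kb, ranks 27 and 41 among the 20037 genes. PGR followed at 2.50, TFAP2C at 1.82 and ESR1 at 1.40, and NR3C1 was at 0, which was also the median of all genes. With R5020 the order was FOXA1 27.4, GATA3 22.3, PGR 19.5, ESR1 16.9, TFAP2C 10.0 and NR3C1 8.54, against a median gene of 8.38 and a 90th percentile of 17.5. FOXA1 ranked 168, GATA3 662, PGR 1303 and ESR1 2268. TFAP2C, at rank 7917, and NR3C1, at rank 9809, were near the middle of all genes. Counting error alone does not separate neighbours in this order such as GATA3 and PGR, whose counts were 29 and 39 in windows of 130 and 200.2 kb.

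**Figure D2:**
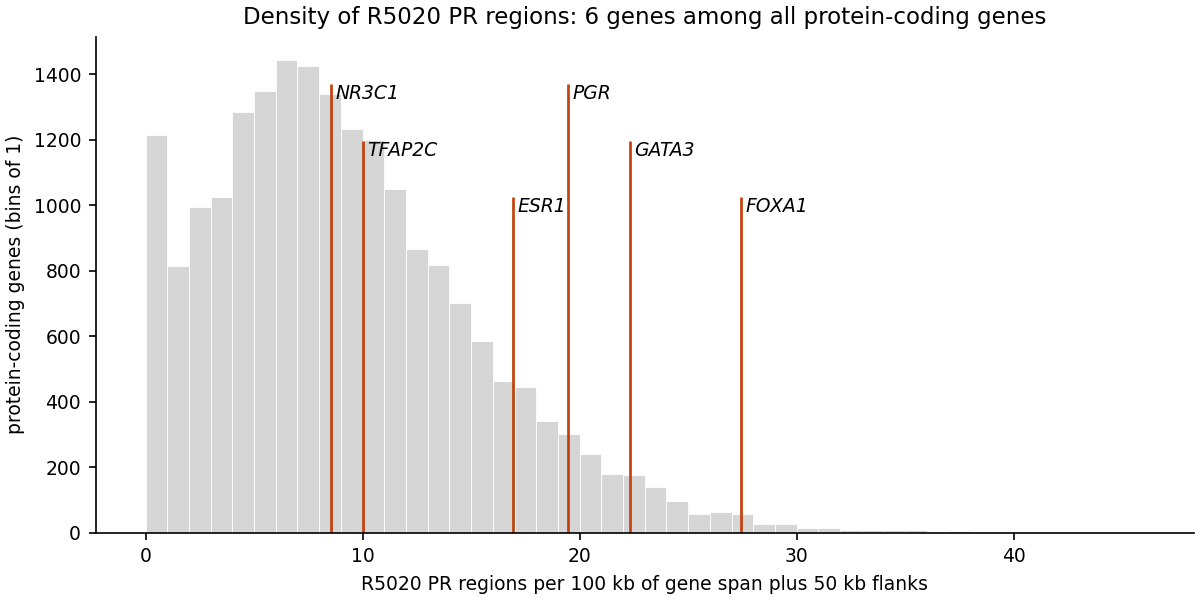
Histogram of the density of R5020 PR regions, in regions per 100 kb of gene span plus 50 kb flanks (x axis), over all 20037 protein-coding genes (y axis, genes per bin of 1). Orange lines mark the 6 genes, whose height carries no value: NR3C1 at 8.54 and TFAP2C at 10.0 stand in the bulk, while ESR1 at 16.9, PGR at 19.5, GATA3 at 22.3 and FOXA1 at 27.4 stand on the upper side.

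The strength of the R5020 PR regions differed among the genes in another order than their density. The authors' fold enrichment, the signal at a summit over the peak caller's background, was ranked within the R5020 list. Folds and ranks are each list's own and show no change between treatments. By construction, 10% of all regions have a fold percentile of 90 or more. ESR1 had 21 such regions of 97 (21.6%) and FOXA1 6 of 29 (20.7%). GATA3 had 3 of 29, TFAP2C 2 of 11 and PGR 2 of 39 (5.13%). NR3C1 had none of 22, and its highest percentile was 88.6. No interval was computed for these small counts. ESR1 thus held many PR regions in its window of 573 kb (16.9 per 100 kb), and they were often strong. Those of PGR (19.5 per 100 kb) were mostly of ordinary rank, with a median percentile of 44.2.

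PR with vehicle lay within acetylated chromatin at the 5 genes that had it. Each of the 34 vehicle PR regions shared sequence with a vehicle H3K27Ac region (100%, 89.8 to 100), as did 89.6% of the whole vehicle list. Of the 34, 30 were found again with R5020 (88.2%, 73.4 to 95.3), against 91.6% of the whole list. The 4 others were 1 region of PGR and 3 regions of GATA3. Summits of the 30 pairs lay a median of 265 bp apart, with a range of 16 to 1952 bp, and 8 pairs lay within 100 bp. The pairs are not 30 separate sites, since several vehicle regions could share 1 R5020 region. All 4 pairs of PGR did, with shifts of 336 to 1952 bp, as did both of TFAP2C and some of ESR1 and GATA3. In the reverse direction 25 of 227 R5020 PR regions (11.0%, 7.57 to 15.8) overlapped a vehicle PR region. The share was 8 of 29 at FOXA1 and at GATA3, 7 of 97 at ESR1, 1 of 39 at PGR and 0 of 22 at NR3C1, against 3.40% of the whole R5020 list.

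PGR lies on the minus strand of chromosome 11 (chr11:101029624-101129813, GRCh38), and RefSeq gives it 3 start sites. With vehicle, 4 of its 5 PR regions had their summits between 0.089 and 2.39 kb after the outermost start, with folds of 2.47 to 4.57. With R5020 they were replaced by 1 continuous region of 2767 bp at chr11:101127309-101130075, which spans all 3 starts and the start of the antisense transcript PGR-AS1. Its fold was 42.9 and its -log10 q 371, at the 98.2 percentile of its list, and its summit lay 435 bp inside the gene. The fifth and strongest vehicle region, chr11:101034054-101034450, lay 95.6 kb into the gene, near its 3′ end, with a fold of 10.1. No R5020 PR region shared sequence with it. Of the 39 R5020 regions, 24 had their summit in the gene span, 7 before the outermost start and 8 beyond the other end. The H3K27Ac region of highest -log10 q, chr11:101121489-101129755, covered 8267 bp at the beginning of the gene with a fold of 31.8.

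**Figure D3:**
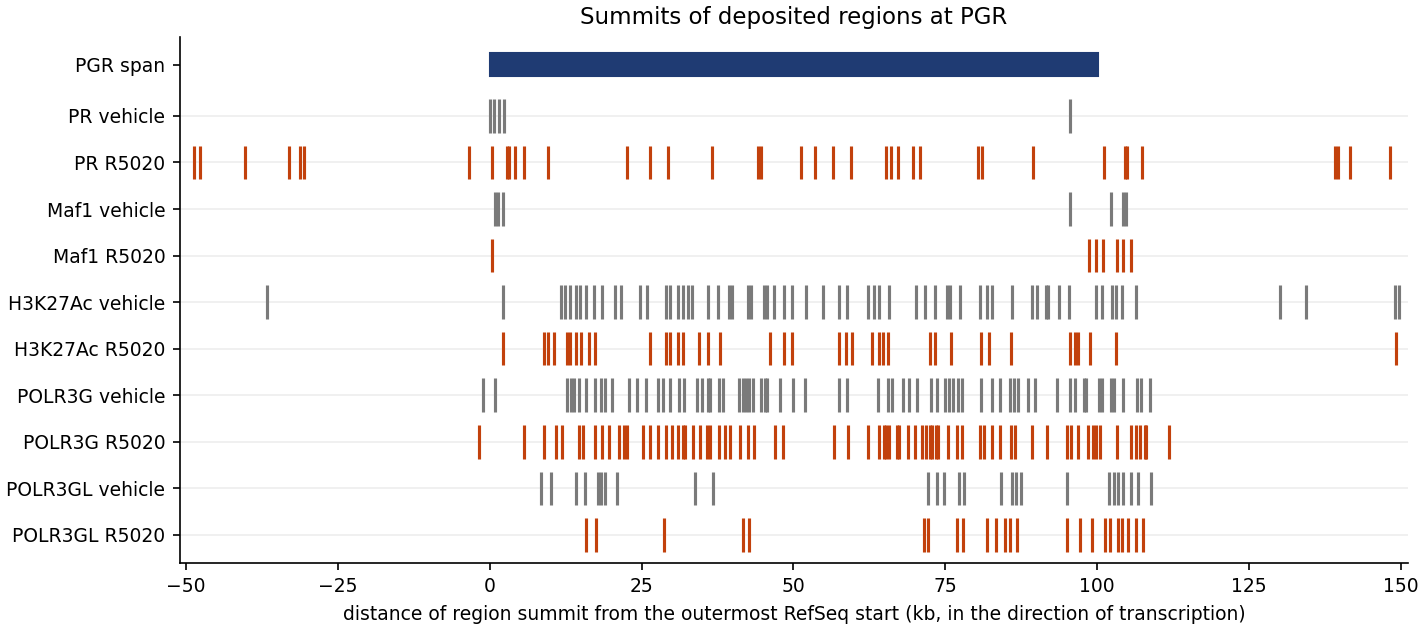
Summits of the deposited regions along PGR (ticks; grey, vehicle; orange, R5020), by distance in kb from the outermost RefSeq start in the direction of transcription; the blue bar is the gene span. With vehicle 4 of 5 PR summits lie at the start. Most H3K27Ac, POLR3G and POLR3GL summits lie in the gene span, with at most 1 before the start in each list, and a few H3K27Ac summits lie far beyond its end.

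ESR1 lies on the plus strand of chromosome 6 (chr6:151656672-152129619) and has 6 RefSeq starts spread over its first part. None of the 6 start windows had a PR region with vehicle and 5 had one with R5020, where 7.28% and 35.0% of all promoter windows had one. The nearest R5020 summit to a start lay 18 bp from it, in chr6:151805473-151805994 (fold 17.6). With vehicle, 5 of the 8 PR regions lay before the outermost start. The strongest, chr6:151616024-151616600, had a fold of 29.4, the highest of any vehicle PR region at the 6 genes, and lay 40.3 kb before the gene within CCDC170. An R5020 region lay at the same place, with its summit 16 bp away. All 8 vehicle regions of ESR1 were found again. The R5020 region of highest -log10 q (395) was chr6:152001960-152003219, 346 kb inside the gene, with a fold of 50.2. It overlapped an R5020 Maf1 region and an R5020 H3K27Ac region and no vehicle region of any antibody. In all, 77 of 97 R5020 summits lay in the gene span and 15 before it, and the densest 20 kb stretch, around the outermost start, held 13.

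**Figure D4:**
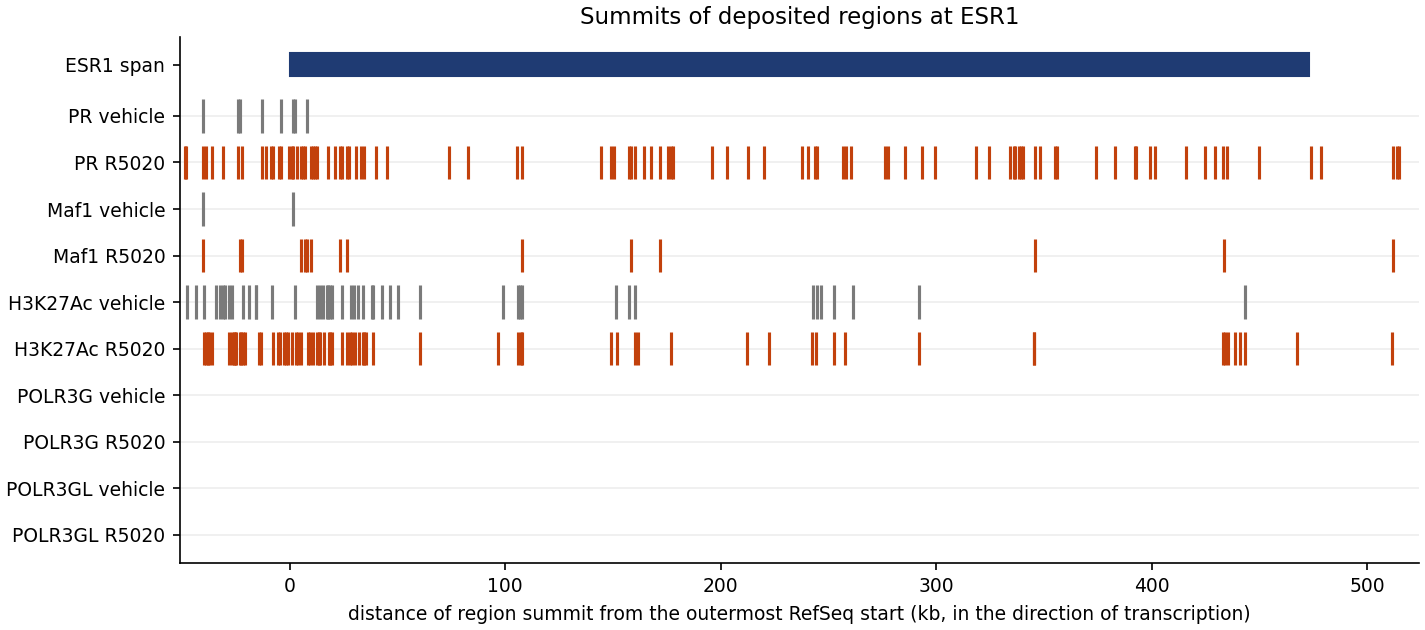
Summits of the deposited regions along ESR1 (ticks; grey, vehicle; orange, R5020), by distance in kb from the outermost RefSeq start; the blue bar is the gene span. Vehicle PR summits lie within 50 kb of that start, R5020 PR summits along the whole gene, and POLR3G and POLR3GL have none in either treatment.

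NR3C1 lies on the minus strand of chromosome 5 (chr5:143277931-143435512) and had the sparsest set of regions. Its 7 RefSeq starts fall in a distal group, where no list had a region, and a proximal group further into the gene. H3K27Ac lay over 5 of the 7 start windows in both treatments, where 49.3% of all promoter windows had it with vehicle and 49.6% with R5020. PR lay over 3 of the 7 with R5020 and over none with vehicle, where 35.0% and 7.28% of all promoter windows had a PR region. These windows are not separate sites: 2 of the 3 overlap each other and were touched by the same R5020 PR region. Likewise, a single R5020 H3K27Ac region covered 4 of the starts. The region nearest to a start, chr5:143404357-143404536, was weak, with a fold of 2.92, at the 4.22 percentile. The R5020 region of highest -log10 q (119) was chr5:143417902-143418836, with a fold of 18.9, 17.1 kb into the gene between the start groups. It overlapped H3K27Ac with R5020 and not with vehicle. Of the 22 PR regions, 18 had no H3K27Ac in either treatment (81.8%, 61.5 to 92.7), against 68.0% of the whole list. No Maf1 or polymerase III subunit region lay at NR3C1. Extending the flanks to 100 kb gave it 2 vehicle and 43 R5020 PR regions.

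FOXA1 is a short gene on the minus strand of chromosome 14 (chr14:37589552-37595249) with 1 RefSeq start, so most of its window is flank shared with MIPOL1 and TTC6. Of its 29 R5020 PR regions, 26 had their summit outside the span and 16 touched another gene's span. A PR region lay over the start in both treatments, with R5020 chr14:37594901-37595771 (fold 6.59, at the 55.9 percentile). Just beyond the 3′ end of the gene, the region at chr14:37587973-37588984 had a fold of 43.0 within the R5020 list, and a vehicle region overlapped it. It was singled out for that fold. The strongest vehicle region, chr14:37546693-37547503, had a fold of 15.5 and lay 48.2 kb from the start within MIPOL1. The R5020 region of highest -log10 q (349), chr14:37645248-37645917, had a fold of 37.3, but lay within TTC6 at the very edge of the 50 kb flank. H3K27Ac formed 1 R5020 region of 17910 bp, chr14:37582669-37600578, that covered the entire gene.

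GATA3 lies on the plus strand of chromosome 10 (chr10:8045333-8075198) with 6 RefSeq starts. A single H3K27Ac region covered the whole gene in both treatments, with R5020 chr10:8044816-8076827 at 32012 bp and a fold of 27.9. PR lay over 4 of the 6 start windows with vehicle and over all 6 with R5020, where 7.28% and 35.0% of all promoter windows had a PR region. Vehicle PR regions at GATA3 were numerous and weak, with folds from 2.44 to 5.65, the highest at chr10:8054195-8054936, 69 bp from a start by its summit. The R5020 region of highest -log10 q (330), chr10:8066483-8067238, had a fold of 29.9 and lay 21.5 kb into the gene, where vehicle had no PR region. An R5020 Maf1 region overlapped it. The R5020 region nearest to a start, chr10:8060120-8060477, had a fold of 15.8.

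TFAP2C lies at chr20:56629306-56639283; its strand was not given in the table used, so distances are from its lower-coordinate end. Both vehicle PR regions lay at that end, with folds of 3.50 and 3.59. With R5020 1 region of 2321 bp, chr20:56628304-56630624, overlapped both of them and had a fold of 16.3. The R5020 region of highest -log10 q (350), chr20:56668771-56669388, had a fold of 37.4 and lay 39.8 kb away in the flank, over no gene span. It overlapped Maf1 with R5020 and H3K27Ac in both treatments.

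H3K27Ac at these genes covered less sequence with R5020 at each of the 6. The number of H3K27Ac regions went from 65 to 40 at PGR, 26 to 21 at FOXA1, 13 to 12 at GATA3 and 28 to 21 at TFAP2C. It was 4 in both treatments at NR3C1 and went from 47 to 73 at ESR1. Thus 4 of the 6 had fewer regions with R5020, where 18.6% of all protein-coding genes did, and 1 had more, where 56.0% did. The interval of the log2 ratio lay below no change at PGR (-1.31 to -0.11) and above it at ESR1 (0.09 to 1.20). At the other genes it spanned no change. Over the 6 genes the counts were 183 and 171, a log2 ratio of -0.10 with an interval from -0.41 to 0.21, against 0.34 for the whole lists. Covered length, a measure added after the counts were seen, was 48.0 kb with vehicle and 24.0 kb with R5020 at PGR. At FOXA1 it was 43.6 and 26.7 kb, at NR3C1 5.02 and 3.58 kb, at TFAP2C 20.3 and 15.9 kb, at ESR1 83.6 and 69.2 kb and at GATA3 38.0 and 36.4 kb. Of all genes, 47.6% had a shorter covered length with R5020. The ratio at PGR, 0.50, was below that of 97.3% of the 16361 genes with at least 1 kb covered with vehicle, whose median was 0.976 and whose 10th percentile was 0.693. FOXA1, at 0.612, was also below the 10th percentile, and the other genes ranged from 0.713 at NR3C1 to 0.956 at GATA3. Over the 6 genes together the covered length was 239 and 176 kb, and it was 203 and 147 kb when only regions of -log10 q of at least 5 were counted.

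**Figure D5:**
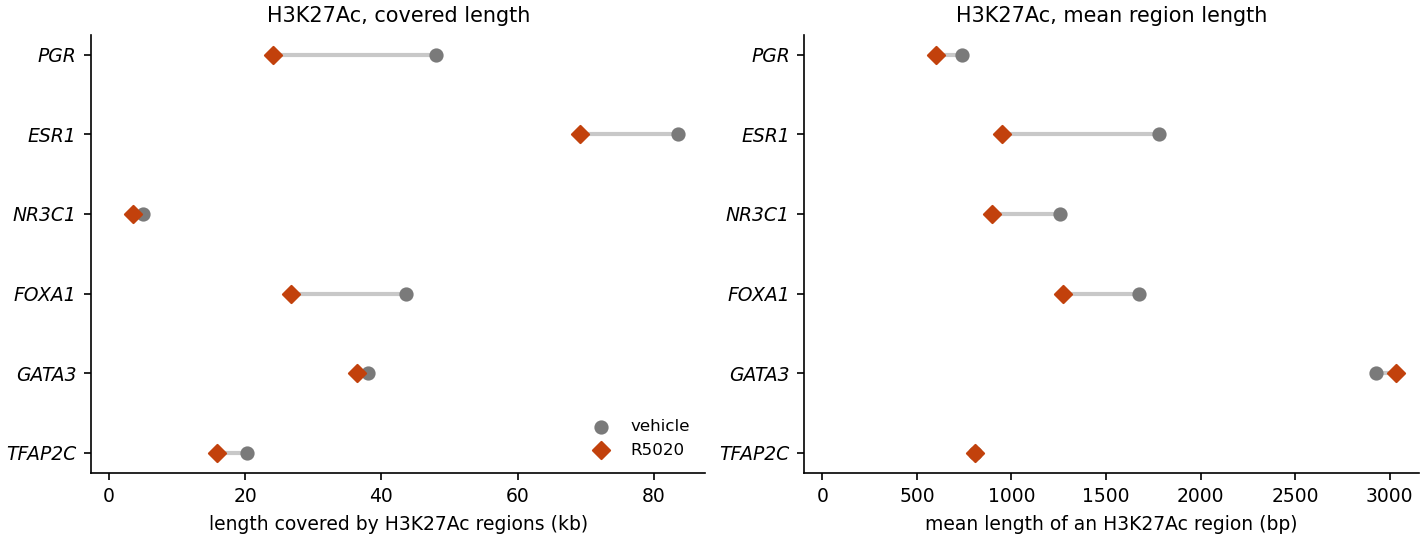
H3K27Ac at the 6 genes with vehicle (grey circles) and R5020 (orange diamonds): length covered in kb within the gene span plus 50 kb flanks (left) and mean length of a region in bp (right), 1 list per point. Covered length is lower with R5020 at each gene, from 48.0 to 24.0 kb at PGR; at ESR1 the mean region is shorter (1779 and 948 bp) while the regions are more numerous.

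The number and the length of H3K27Ac regions moved differently at ESR1 and PGR. At ESR1 there were more and shorter H3K27Ac regions with R5020, of 948 bp on average against 1779 bp. At PGR there were fewer, and their mean length went from 739 to 601 bp. Of the vehicle H3K27Ac regions at the 6 genes, 85 of 183 were found again with R5020 (46.4%, 39.4 to 53.7), against 67.2% of the whole list. The share was 29 of 47 at ESR1, 27 of 65 at PGR and 7 of 26 at FOXA1 (26.9%, 13.7 to 46.1). It was 7 of 13 at GATA3, 14 of 28 at TFAP2C and 1 of 4 at NR3C1. With a fold of at least 5 the share was 62.5%, and that of the whole list 83.2%. Over all promoter windows, 49.3% had an H3K27Ac region with vehicle and 49.6% with R5020. H3K27Ac lay over 2 of 3 start windows of PGR, the 1 of FOXA1, all 6 of GATA3 and 5 of 7 of NR3C1 in both treatments, and over 5 of 6 of ESR1 with vehicle and all 6 with R5020. No explanation of the difference was tested, and with 1 list per treatment a difference between libraries and an effect of R5020 cannot be told apart.

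Of the 227 R5020 PR regions, 106 shared sequence with an R5020 H3K27Ac region (46.7%, 40.3 to 53.2), against 28.7% of the whole R5020 PR list. By gene the share was 75.9% of 29 at GATA3 (57.9 to 87.8), 63.6% of 11 at TFAP2C, 55.2% of 29 at FOXA1, 45.4% of 97 at ESR1, 33.3% of 39 at PGR and 18.2% of 22 at NR3C1 (7.31 to 38.5). The intervals of GATA3 and NR3C1 do not overlap, but they treat neighbouring regions as independent, so no difference between the genes is concluded. At GATA3 only 3 of 12 R5020 H3K27Ac regions overlapped an R5020 PR region, so many PR regions shared the same acetylated region. H3K27Ac covered 28.0% of the window at GATA3 with R5020, 25.2% at FOXA1, 14.5% at TFAP2C, 12.1% at ESR1, 12.0% at PGR and 1.39% at NR3C1, so the extremes were the same as for the share and the order between them was not. The part of the covered length in the share was not tested. The share depended strongly on the definition, from 7.05% when an overlap had to cover 50% of each region to 87.5% among the 16 regions left with lists of equal length, where the whole list was at 82.9%. With a fold of at least 5 it was 31.7%, against 19.5% of the whole list. H3K27Ac was present in both treatments at 94 of the 227 PR regions (41.4%), against 22.6% of the whole list. It was present with R5020 alone at 12 (5.29%, whole list 6.04%) and with vehicle alone at 14 (6.17%, whole list 3.37%). It was absent in both at 107 (47.1%, whole list 68.0%).

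Of the 171 R5020 H3K27Ac regions at these genes, 133 overlapped a vehicle H3K27Ac region (77.8%, 71.0 to 83.4), against 58.3% of the whole list. The other 38 overlapped none, and 15 of the 38 overlapped an R5020 PR region (39.5%, 25.6 to 55.3), against 21.3% over the genome. ESR1 contributed 9 of 16, NR3C1 2 of 2, PGR 2 of 6, GATA3 1 of 4, TFAP2C 1 of 7 and FOXA1 0 of 3. Of the 98 vehicle H3K27Ac regions not found again, 9 overlapped an R5020 PR region (9.18%, 4.91 to 16.5), against 15.6% over the genome. PGR had 3 of 38 such regions and FOXA1 3 of 19.

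Maf1, the polymerase III repressor, largely overlapped PR at these genes. Maf1 regions went from 7 to 7 at PGR, 2 to 15 at ESR1, 6 to 13 at FOXA1, 6 to 10 at GATA3 and 1 to 3 at TFAP2C, and NR3C1 had none in either treatment. Thus 4 of the 6 genes had more with R5020, where 67.7% of all genes did. With vehicle 5 of 6 had at least 1 Maf1 region, where 26.5% of all genes did, and with R5020 5 of 6, where 70.4% did. The sum went from 22 to 48, a log2 ratio of 1.13 (0.37 to 1.92) against 2.90 for the whole lists. With the 3049 top regions of each list, it went from 22 to 3. Of the 48 R5020 Maf1 regions, 41 overlapped R5020 PR (85.4%, 72.8 to 92.8), close to the 82.1% of the whole list. All 15 did at ESR1, all 10 at GATA3 and all 3 at TFAP2C, and 10 of 13 at FOXA1. At PGR 3 of 7 did (42.9%, 15.8 to 75.0), and the 4 others lay at or beyond the 3′ end of the gene. Just inside the PGR starts, 3 vehicle Maf1 regions had summits between 0.897 and 2.19 kb after the outermost start. With R5020, 1 Maf1 region of 2687 bp lay there, chr11:101127190-101129876. Its summit lay 0.436 kb from the outermost start and that of the R5020 PR region 0.435 kb. The strongest vehicle PR region of PGR, near the 3′ end, also carried Maf1 with vehicle (chr11:101034170-101034359), and neither protein was found there with R5020. These Maf1 regions were singled out after their values were seen. With vehicle 18 of 22 Maf1 regions overlapped vehicle PR (81.8%, 61.5 to 92.7), against 53.3% of the whole list. Neither POLR3A nor Brf1 had a region at any of the 6 genes in either treatment, where 3.66% and 3.99% of all genes had a POLR3A region and 2.27% and 6.05% a Brf1 region with vehicle and R5020.

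The POLR3G and POLR3GL antibodies, which recognise alternative subunits of polymerase III, gave most of their regions in this set at PGR. It had 72 POLR3G regions with vehicle and 75 with R5020, whereas ESR1 and NR3C1 had 0 in both treatments. FOXA1 had 13 and 19, GATA3 9 and 18, and TFAP2C 11 and 4. Of all genes, 66.9% had a POLR3G region with vehicle. More POLR3G regions with R5020 were found at 3 of the 6 genes, where 17.6% of all genes had more, and fewer at 1, where 43.3% had fewer. The covered length was nevertheless shorter with R5020 at all 4 genes that had POLR3G regions, 121 and 82.2 kb in sum. It was shorter for 56.0% of all genes, which include genes without POLR3G, and in the whole lists (ratio 0.664). Among the 10067 genes with at least 1 kb covered with vehicle, the median ratio was 0.597, so shortening was usual. PGR was at 0.768, FOXA1 at 0.668, GATA3 at 0.571 and TFAP2C at 0.297. At PGR 63 of the 72 vehicle POLR3G summits lay in the gene span, 8 beyond its end and 1 before its start. H3K27Ac summits at PGR were placed alike, 55 of 65 in the span and 1 before the start, and 46 of the 72 POLR3G regions overlapped H3K27Ac with vehicle (63.9%, 52.4 to 74.0), against 53.6% of the whole list. With R5020 28 of 75 did (37.3%, 27.3 to 48.6), against 61.3% of the whole list. At FOXA1 all 13 did with vehicle and all 19 with R5020. At ESR1, where H3K27Ac covered 14.6% of the window with vehicle, no POLR3G region was found.

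POLR3GL regions were rare in the genome, 1104 with vehicle and 603 with R5020. PGR had 27 of them with vehicle and 24 with R5020, a density that ranked 5 and 2 among the 20037 genes. GATA3 had 4 with vehicle and 0 with R5020, and the 4 other genes had none. At least 1 vehicle POLR3GL region was thus found at 2 of the 6 genes, where 2.24% of all genes had one. With R5020 it was 1 of the 6, where 1.75% of all genes had one. At least 4 vehicle regions were found at 2 of the 6 genes, where 0.265% of all genes had that many. This cut-off equals the count at GATA3, the lower of the 2. The 0.265% is therefore not an independent comparison, and nothing is concluded from it. At PGR the folds were low, from 2.27 to 3.70 with vehicle and from 2.59 to 4.16 with R5020. Of the 27, 20 lay in the gene span and 7 beyond its 3′ end, and none before the start. POLR3G overlapped 26 of the 27 (96.3%, 81.7 to 99.3), against 25.9% of the whole POLR3GL list, and 14 of the 27 were found again with R5020 (51.9%, 34.0 to 69.3), against 24.1%. POLR3G covered 32.6% of the window at PGR with vehicle, and the part of this covered length in the overlap was not tested. The 4 regions at GATA3 were chr10:8068278-8068602, chr10:8069563-8069755, chr10:8074954-8075288 and chr10:8104360-8104624, with folds from 2.59 to 2.93. POLR3C was found at GATA3 alone, in 1 vehicle region, chr10:8054587-8054773 (fold 3.00), and 4 R5020 regions between 8056404 and 8061906 of the same chromosome with folds of 3.08 to 3.35. The vehicle region did not overlap any of the 4. A POLR3C region was found at 5.85% of all genes with vehicle and 5.97% with R5020. The treatment contrasts of POLR3C, POLR3G and POLR3GL rest on titles that 4 treatment tags contradict, and the part of that conflict in them was not tested.

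With R5020, 21 of 39 PR regions at PGR (53.8%, 38.6 to 68.4) and 17 of 29 at GATA3 (58.6%, 40.7 to 74.5) overlapped POLR3G. At FOXA1 11 of 29 did, and at TFAP2C 2 of 11. ESR1 and NR3C1 had no POLR3G region to overlap. The share was 9.73% in the whole R5020 PR list. POLR3G covered 25.1% of the window at PGR with R5020, 14.4% at GATA3, 10.9% at FOXA1 and 1.63% at TFAP2C. The part of this covered length in the shares was not tested. Maf1 overlapped 10 of 29 R5020 PR regions at FOXA1 and at GATA3, 13 of 97 at ESR1, 4 of 39 at PGR and 3 of 11 at TFAP2C, against 10.2% of the whole list.

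The same counts were made for genes related to the 6. PR regions were more numerous with R5020 at 7 of 7 other steroid and related nuclear receptor genes, 16 of 16 other luminal transcription factor genes and 12 of 12 coregulator genes, which is the background behaviour. The median R5020 density was 9.44 regions per 100 kb for the receptors, 16.7 for the luminal factors and 10.1 for the coregulators, against 18.2 for the 6 genes and 8.38 for all genes. The mineralocorticoid receptor gene NR3C2 had 1 PR region with vehicle and 26 with R5020, a density of 5.57 per 100 kb with R5020, below the median gene. The vitamin D receptor gene VDR had 26.9. Among luminal factors the secretory regulator XBP1 had 28.3 and SPDEF 31.2, above FOXA1. H3K27Ac regions were fewer with R5020 at 0 of 7 receptors, 2 of 16 luminal factors (EHF and LMO4) and 4 of 12 coregulators, against 4 of the 6 genes. The related genes named singly were picked after their values were seen.

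The protein-coding genes with the most similar region densities over the 16 lists were found by Euclidean distance of log2(regions per 100 kb + 1). For PGR they were HNRNPA2B1 (distance 2.89), CBX3 and NFE2L3, against a median distance of 9.14 over all genes. These 3 lie in overlapping windows and, like PGR, had POLR3GL regions. For ESR1 they were CPA4 (0.585), FFAR3 and CPA5, for NR3C1 CSRP3 (0.0947), FMO4 and QDPR, and for TFAP2C FLT4 (0.694), PHLDB3 and SNAP29. For FOXA1 they were CCDC117 (0.826), IRF2BP2 and IL17REL. For GATA3 they were the endothelin gene EDN1 (3.01) and the histone genes H2BC18 and H3C13. The nearest genes of PGR and GATA3 were thus more distant than those of the other genes of the set. None of the 6 genes was among the 3 nearest of another, which says little, since only 3 of all protein-coding genes are listed for each.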

How the data were processed

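T47D libraries of 8 ChIP antibodies and input were labelled by treatment, 54 libraries in 18 groups of 3, and grouped by title. The authors deposited 1 region list per antibody and treatment. Cutadapt, Bowtie2, MACS2 and the build hg38 are named in the submitters' processing notes. Versions, settings, the control and how the 3 libraries were combined are not given in the sources used here. In each deposited list the fold is a ratio, summit signal divided by the caller's background, and the significance is the -log10 of a q-value, both as the authors' peak caller gave them; they describe, rank or filter regions within a list and are not compared between lists. The deposited lists carry summit offsets and no read counts, so depth is unknown. A longer list can come from deeper sequencing as well as from more binding.

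Regions outside chromosomes 1 to 22, X and Y were dropped. Gene spans came from RefSeq on GRCh38.p14, without exons, so regions are placed by span only. Promoter windows came from RefSeq on the same build, for 5 of the 6 genes. A region belonged to a gene when it touched the span or 50 kb on either side, and regions overlapped when they shared at least 1 bp. Shares have 95% Wilson intervals, and log2 ratios have exact counting intervals. Percentages of all protein-coding genes are background, not tests. The regions named were, by rule, the PR regions of highest -log10 q, the R5020 PR region nearest to a start, the top R5020 H3K27Ac region, and POLR3A, POLR3C, POLR3GL and Brf1 regions where a list had 5 or fewer. A further PR region of FOXA1 and some Maf1 regions of PGR were named after their values were seen. The members, lists and rules were chosen with earlier results of these data known. Region counting was tested on simulated data. Alternatives were minimum values of 5 for -log10 q or for the fold, flanks of 10 and 100 kb, lists of equal length, and sharing of 50% of both regions. Covered length was added after the data were seen. Python 3.11.15, numpy 2.4.6, pandas 2.3.3, scipy 1.17.1 and matplotlib 3.10.9 were used.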

Additional observations from a re-analysis of the deposited data

How the results depend on the processing

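No paired analysis was possible because each antibody and treatment has 1 list and the lists carry no replicate number; for the same reason no replicate could be left out. With lists of equal length the log2 ratio of PR regions at the 6 genes became -1.09, that of Maf1 -2.87 and that of H3K27Ac -0.43, and the R5020 minus vehicle difference in PR regions became -4 at PGR, -4 at FOXA1, -10 at GATA3 and -1 at TFAP2C. The share of R5020 PR regions with H3K27Ac became 87.5% and that of R5020 Maf1 regions with PR 100% (3 of 3). With a fold of at least 5 the log2 ratios were 3.72 for PR, 2 for Maf1 and -2.32 for POLR3G (5 and 1 regions), and the shares were 31.7% for PR with H3K27Ac, 62.5% for H3K27Ac found again and 95.8% for Maf1 with PR. With -log10 q of at least 5 PR with H3K27Ac was 39.1%, and with flanks of 100 kb 38.7%; H3K27Ac found again was 53.8% with flanks of 10 kb. When an overlap had to cover 50% of each region, these 3 shares were 7.05%, 26.2% and 25%. Covered length in place of number gave log2 ratios of -0.44 for H3K27Ac (-0.46 with -log10 q of at least 5, -0.54 with lists of equal length) and -0.56 for POLR3G. The cause of these changes was not tested. The other 23 values of the summed counts and shares stayed within the interval of the reported value. Of the values for single genes, 16 stayed within 1.5 times the reported difference, and besides the 4 negative ones 10 moved further, to 1 at ESR1 and 0 at NR3C1 with lists of equal length. Depth is unknown, so whether a gene without a region lacks the protein or the depth to show it cannot be told apart.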
